A study of Homo sapiens with 24 samples.

Results

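Gap-flanking peaks, among them those at the pericentromeres, were selected from the peak lists of 21 human KZFPs by position. A peak was counted when its score was above 80, when it lay within 1 Mb of a run of undetermined bases (N) of at least 50 kb in hg19, and when it was more than 1 Mb from both ends of chromosomes 1 to 22. This rule selected 2709 of the 29971 kept peaks on these chromosomes (9.04%). None of its terms uses the sequence of the peak, but arrays of repeated sequence are often runs of N in hg19. Position beside a run and repeat content are therefore not independent, and the repeat content of the windows themselves was not measured. The windows cover 224 Mb around 225 runs of N, which is 8.35% of the assembled bases. Of the runs, 23 span at least 3 Mb, the length that hg19 reserves for a centromere, and 444 of the selected peaks had such a run as the nearest one, while the other 2265 lay beside shorter runs.

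Each KZFP was expressed with 3 HA tags at its C-terminus in HEK293T cells (an established human line of embryonic kidney origin) from a vector induced with doxycycline at 1 μg/ml, and its chromatin was immunoprecipitated through the HA tag. ChIP-exo, where an exonuclease digests the recovered DNA up to the crosslinked protein, was used for 15 KZFPs and ChIP-seq for the other 6. A further ChIP-seq library, 293Tctrl, is labelled like the others but with 293Tctrl in place of a KZFP, and was made with the same antibody. There was 1 library per KZFP, from overexpressed protein, so no replicate error exists for any difference between KZFPs, and the intervals below cover counting error only.

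KZFPs contact DNA through arrays of zinc fingers, and many of them bind transposable elements and recruit the corepressor KAP1. The centromeres of human chromosomes are built of alpha satellite, a tandem repeat with a unit of 0.171 kb, part of whose units carry the CENP-B box, the binding site of the centromere protein CENP-B. Human satellites 2 and 3 are another family of pericentromeric arrays, made of diverged copies of the pentamer ATTCC. In hg19 the arrays themselves are largely replaced by runs of N, and the sequence that remains is the edge of such an array or a copy of it elsewhere.

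The 2709 peaks merged into 2501 loci, of which 2396 had a peak of 1 library, 105 had peaks of 2 or more libraries and 11 had peaks of 5 or more. At all 11 the highest peak was in a tandem repeat with a period of 0.171 kb or close to 0.342 kb, the length of a pair of units. The windows below show 0.171 kb, 1 unit of the repeat, at the midpoint of the highest peak at each of the 6 most shared loci, on the plus strand of hg19. Capitals mark the core of the CENP-B box, searched on both strands as TTCG, any 4 bases, A, any 2 bases and CGGG. Of the 6 windows 2 hold it, but every kept peak at these 6 loci held at least 1 copy over its full width.

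Locus 1, ZNF251 peak, chr9:66971291-66971461: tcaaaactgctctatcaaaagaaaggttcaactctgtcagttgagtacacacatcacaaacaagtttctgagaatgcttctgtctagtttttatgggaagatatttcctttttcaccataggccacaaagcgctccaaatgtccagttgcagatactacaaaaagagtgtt
Locus 2, ZNF578 peak, chr9:69710962-69711132: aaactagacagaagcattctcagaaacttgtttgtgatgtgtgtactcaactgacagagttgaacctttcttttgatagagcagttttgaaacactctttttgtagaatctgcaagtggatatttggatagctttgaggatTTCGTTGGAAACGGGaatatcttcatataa
Locus 3, ZNF850 peak, chr2:92284107-92284277: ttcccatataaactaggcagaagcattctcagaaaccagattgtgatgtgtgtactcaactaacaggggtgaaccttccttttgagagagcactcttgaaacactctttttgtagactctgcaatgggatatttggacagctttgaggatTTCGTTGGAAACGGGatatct
Locus 4, ZFP28 peak, chr6:58777904-58778074: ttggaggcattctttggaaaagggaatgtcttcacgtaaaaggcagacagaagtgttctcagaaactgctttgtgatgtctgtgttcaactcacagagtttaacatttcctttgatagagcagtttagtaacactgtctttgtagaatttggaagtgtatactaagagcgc
Locus 5, ZNF578 peak, chr11:51590746-51590916: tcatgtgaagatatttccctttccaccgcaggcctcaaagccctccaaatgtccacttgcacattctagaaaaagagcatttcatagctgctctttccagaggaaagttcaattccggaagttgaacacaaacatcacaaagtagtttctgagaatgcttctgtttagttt
Locus 6, ZNF578 peak, chr9:67320493-67320663: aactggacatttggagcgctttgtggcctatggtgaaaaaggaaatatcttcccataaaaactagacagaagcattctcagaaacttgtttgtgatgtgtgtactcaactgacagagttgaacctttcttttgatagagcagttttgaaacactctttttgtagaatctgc

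A second kind of sequence was dense in ATTCC or its complement GGAAT. The windows below, chosen after the classes were seen, show the middle of the highest ATTCC-rich peak at the 3 most shared loci of this kind, with each ATTCC or GGAAT in capitals.

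ZNF160 ATTCC-rich peak, chr2:90376022-90376192: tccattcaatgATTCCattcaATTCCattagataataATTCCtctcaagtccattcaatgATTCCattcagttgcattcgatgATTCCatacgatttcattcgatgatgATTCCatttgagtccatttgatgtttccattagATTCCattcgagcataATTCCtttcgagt
ZNF160 ATTCC-rich peak, chr16:34195107-34195277: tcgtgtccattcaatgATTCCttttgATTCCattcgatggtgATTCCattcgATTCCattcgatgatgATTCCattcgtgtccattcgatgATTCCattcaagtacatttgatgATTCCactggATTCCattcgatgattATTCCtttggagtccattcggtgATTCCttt
ZNF160 ATTCC-rich peak, chr2:91597744-91597914: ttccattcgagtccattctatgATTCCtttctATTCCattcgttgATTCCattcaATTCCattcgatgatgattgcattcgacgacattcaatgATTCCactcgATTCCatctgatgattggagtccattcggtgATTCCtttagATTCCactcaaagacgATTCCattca

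Locus 1, at chr9:66970773-66971881, had kept peaks in 9 libraries. The MACS scores, each the −log10 of a peak p-value times 10, were 3100.0 in ZNF251, 1754 in ZNF578, 1731 in ZNF729, 1699 in ZNF850, 881 in ZFP28, 754 in ZNF724P, 676 in ZNF160, 121 in ZKSCAN8 and 91.7 in ZNF597. It was the highest peak of the whole list for ZNF729, ZNF850 and ZNF724P and the second highest for ZNF578. It lies between genes, 6584 bp from the pseudogene BMS1P9 and 57.4 kb from a run of N of 0.05 Mb, and no 293Tctrl peak overlapped it. Scores depend on the depth of each library and of its input, so they are given side by side without a test. Locus 2, at chr9:69710524-69711560 near the pseudogene BMS1P11, had peaks in 8 libraries, with scores between 86.6 (ZNF160) and 380 (ZNF578). Locus 6, at chr9:67320116-67321135 inside an lncRNA intron, had peaks in 7 libraries, with scores between 112 (ZFP28) and 419 (ZNF578). These 3 loci of chromosome 9 are near copies of each other. Of the distinct 31-bp words of locus 1, 86.6% occurred in locus 2 and 75.3% in locus 6, both on the opposite strand, and locus 2 shared 87.9% of its words with locus 6.

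Locus 4, at chr6:58776049-58780188, reached the edge of a run of N of 3.1 Mb and had peaks in 7 libraries. The scores were 1213 in ZFP28, 966 in ZNF578, 731 in ZNF729, 507 in ZKSCAN7, 473 in ZNF251, 333.6 in ZNF597 and 237 in ZKSCAN8. Of the 10 most shared loci it alone also had a kept 293Tctrl peak, with a score of 93.4 and a width of 3467 bp. ChIP-seq reads, those of 293Tctrl among them, were filtered for mapping quality. No word of 85 bp in the peaks at loci 2 and 7 occurred once in the assembly, but all did at loci 9 and 10. Whether a 293Tctrl peak could be called at each locus was not tested. The highest peaks of ZKSCAN8 and ZNF597 were both found here, with widths of 3442 and 3446 bp. These libraries and 293Tctrl were called against the same total input.

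Loci 5, 7 and 8 lie on chromosome 11, between 2.59 and 6.74 kb from a run of N of 3.1 Mb, at chr11:51590110-51591619, chr11:51588129-51589594 and chr11:51586061-51587469. Each had peaks in the same 7 libraries, ZFP28, ZKSCAN7, ZNF251, ZNF578, ZNF724P, ZNF729 and ZNF850. The highest scores were 954 (ZNF578) at locus 5, 308 (ZNF578) at locus 7 and 288 (ZNF850) at locus 8. Loci 7 and 8 shared 88.3% of the words of locus 7, and locus 5 shared 63.0% of its words with locus 7. Locus 3, at chr2:92283817-92284771 and 41.4 kb from a run of N of 3.0 Mb, had peaks in 8 libraries with scores between 86.6 (ZNF546) and 244 (ZNF850). It shared at most 1.2% of its words with any other of the 10. Loci 9 and 10, at chr10:42397677-42401365 and chr7:61084676-61085800, had peaks in 5 libraries each, with ZNF578 highest at locus 9 (1026) and ZNF251 highest at locus 10 (532).

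**Figure D1:**
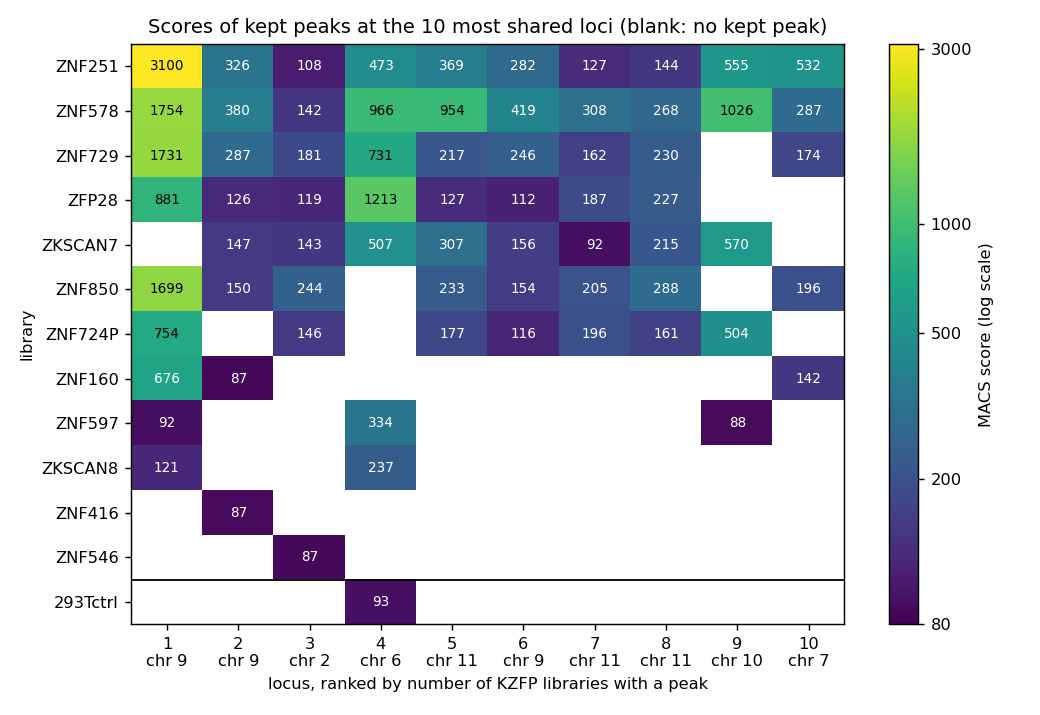
MACS scores of kept peaks (color and number, log scale) at the 10 loci with peaks of most KZFP libraries, with 1 row per library and 293Tctrl below the line. ZNF251 and ZNF578 had a peak at all 10 loci, ZNF729 at 9, and 293Tctrl at locus 4.

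The same libraries recurred at these loci. ZNF251 and ZNF578 had a kept peak at 10 of the 10, ZNF729 at 9, ZFP28, ZKSCAN7 and ZNF850 at 8 each and ZNF724P at 7, while ZNF160 and ZNF597 had 3 and ZKSCAN8 had 2. All of the ChIP-exo libraries were called against 1 sampled input, so that a peak in several lists is not an independent observation of the locus. Peaks of 5 or more libraries were found at 11 of 2501 loci (0.440%), and no such share was computed for interior loci. Of all gap-flanking peaks, 313 (11.6%) overlapped a kept peak of another KZFP by at least 1 bp, against 2.52% of all kept peaks and 1.59% of interior peaks, those more than 1 Mb from any such run and from both ends. With ZNF251 left out, as a list and as a partner of overlap, 229 of 1073 gap-flanking peaks (21.3%) and 1.97% of interior peaks overlapped another KZFP.

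Tandem repeats were found in 453 of the gap-flanking peaks (16.7%), against 2.02% of all kept peaks and 0.460% of interior peaks. Without ZNF251, the longest list, the shares were 33.3% of gap-flanking and 0.828% of interior peaks. A peak was counted here when at least 50% of the bases in the 1000 bp around its midpoint matched the base at 1 fixed lag between 4 and 400 bp. By lag and by sequence, the peaks fell into 3 classes, defined after the lags were seen. The most frequent lags were 0.171 kb (159 peaks), 49 bp (60 peaks), 15 bp (37 peaks), 5 bp (31 peaks) and 342 bp (31 peaks). No annotation of repeats was used, so the classes carry the name of their period or motif.

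The satellite-unit class, with a period within 6 bp of 0.171 kb (163 peaks) or within 8 bp of 0.342 kb (64 peaks), held 227 gap-flanking peaks at 116 loci of 18 chromosomes and 14 libraries. It makes up 0.834% of all kept peaks, and 227 of its 250 kept peaks (90.8%) were gap-flanking. Of the 227, 164 (72.2%) had a run of at least 3 Mb as the nearest run, and 160 lay within 50 kb of the run. Chromosome 9 held 44, chromosome 11 held 35, chromosome 2 held 19 and chromosome 7 held 18. The CENP-B box core was present in 125 of them (55.1%), and in 145 of all gap-flanking peaks (5.35%, or 9.23% without ZNF251), against 0.554% of all kept peaks. The class was led by ZNF251 with 81 peaks and ZNF578 with 49, followed by ZNF729 with 24, ZKSCAN7 with 17, ZFP28 and ZNF850 with 12 each and ZNF724P with 10. Median scores in it lay between 105 in ZKSCAN7 and 200.3 in ZNF850 among these libraries. Of the 24 peaks of ZNF729 in this class, 18 overlapped one of ZNF578 and 16 one of ZNF251. Of the 49 of ZNF578, 31 overlapped one of ZNF251, and of the 81 of ZNF251, 32 overlapped one of ZNF578.

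The ATTCC-rich class, with at least 20 copies of ATTCC or GGAAT per kb, held 184 gap-flanking peaks at 139 loci of 12 chromosomes. It makes up 0.671% of all kept peaks, and 184 of its 201 kept peaks (91.5%) were gap-flanking. ZNF160 had 135 of the 184 and ZKSCAN4 had 28, and the other 11 libraries with any had 4 or fewer each. Chromosome 10 held 62, chromosome 2 held 49, chromosome 16 held 22 and chromosome 7 held 18. Of the 184, 50 (27.2%) had a run of at least 3 Mb as the nearest run, but 131 lay within 50 kb of some run. The peaks were wide, with a median of 1438 bp against 706 bp in the satellite-unit class and 465 bp in gap-flanking peaks without a tandem repeat, and the widest, of ZNF160 at chr16:46418947-46430816, spanned 11870 bp. Of the 28 ZKSCAN4 peaks in this class 25 overlapped a ZNF160 peak of the class, and 28 of the 135 ZNF160 peaks overlapped one of ZKSCAN4. None of the 184 held a CENP-B box core, and 11 of them did not meet the limit for a tandem repeat.

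The third class, with other periods, had 53 gap-flanking peaks, 14 of ZNF251 and 14 of ZNF763, with a median GC content of 55.9%. The remaining 2245 peaks, 1540 of them of ZNF251 and 355 of ZNF160, were in no tandem repeat. They had a median distance of 441 kb to the run of N and a share of 3.25% that overlapped another KZFP, and 547 of them (24.4%) lay within 2500 bp of an annotated transcript start.

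**Figure D2:**
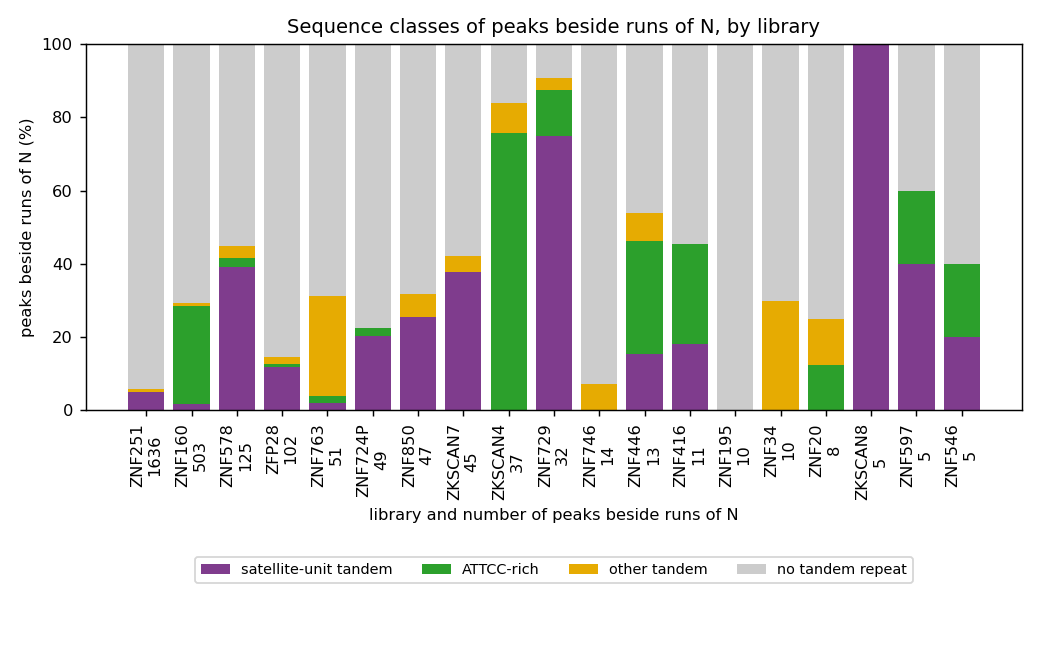
Sequence classes of the gap-flanking peaks of each library with at least 5 of them, in percent of that library's gap-flanking peaks, whose number stands under the name. The satellite-unit class fills all 5 peaks of ZKSCAN8 and 75.0% of ZNF729, and the ATTCC-rich class 75.7% of ZKSCAN4, while ZNF251 and ZNF195 are mostly or wholly without a tandem repeat.

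The number of gap-flanking peaks differed between libraries over the range from 0 to 1636. ZNF251 had 1636, ZNF160 had 503, ZNF578 had 125 and ZFP28 had 102. ZNF763, ZNF724P, ZNF850, ZKSCAN7, ZKSCAN4 and ZNF729 had between 32 and 51, ZNF746, ZNF446, ZNF416, ZNF195 and ZNF34 between 10 and 14, ZNF20 had 8, ZKSCAN8, ZNF597 and ZNF546 had 5 each and ZNF256 had 1. ZNF213 had no kept peak at all. The counts followed the size of the rest of the list, with a Pearson r of 0.88 and a Spearman rho of 0.87 over 20 libraries on a log10 scale (permutation test, two-sided, p = 1e-05 and 2e-05, adjusted p = 2e-05 for both, the first p being the smallest that 100000 permutations can give). Leaving out ZNF251 and ZNF160, the libraries farthest from the median, gave an r of 0.79 (permutation p = 0.0001), and ChIP-exo alone gave 0.89. Both counts are parts of the same list, and the lists ran from 2 to 19916 kept peaks. A positive correlation is thus largely given by list size, and its p-values show no property of the gap-flanking peaks.

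As a share of the kept peaks of chromosomes 1 to 22, the highest values were found in short lists. ZNF729 had 32 of 39 peaks beside a run of N (82.1%, exact Clopper-Pearson 95% interval 66.5 to 92.5%), ZKSCAN4 had 37 of 83 (44.6%, interval 33.7 to 55.9%) and ZNF763 had 51 of 210 (24.3%, interval 18.6 to 30.7%). ZKSCAN8 and ZNF597 each had 5 of 6 (83.3%, interval 35.9 to 99.6%). These shares depended on the score threshold, and over all deposited peaks they were 51.3% in ZNF729, 25.7% in ZKSCAN4, 14.1% in ZNF763, 13.5% in ZKSCAN8 and 22.4% in ZNF597. In contrast, ZNF251 had 8.21% (interval 7.84 to 8.60%) and ZNF160 8.53% (interval 7.83 to 9.27%), close to the 8.35% of assembled bases that the windows take up. The interval lay above 8.35% in 8 of the 20 KZFP libraries with kept peaks and held it in the other 12.

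The 293Tctrl library had 4 kept peaks, and all 4 were gap-flanking (interval 39.8 to 100.0%). They were at chr1:121484040-121485490 (score 145), chr3:90402925-90403256 (108), chr6:58776053-58779519 (93.4) and chr13:86080867-86081263 (84.3), of which the first 3 belonged to the satellite-unit class and the last lay in an intron of LINC00351. Of all 146 deposited 293Tctrl peaks on these chromosomes, 34 (23.3%) were gap-flanking, and 8 of these 34 were in the satellite-unit class. A tandem repeat was found in 10 of the 34 and in 1 of the 109 interior peaks of 293Tctrl. Only 10 gap-flanking KZFP peaks, of 9 libraries, overlapped any deposited 293Tctrl peak (0.369%, against 0.0334% of all kept peaks), 7 of them at locus 4 and 3 on chromosome 8. The part of signal like that of 293Tctrl in the gap-flanking peaks of the ChIP-exo libraries was not tested, since 293Tctrl is a ChIP-seq library with 4 kept peaks.

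**Figure D3:**
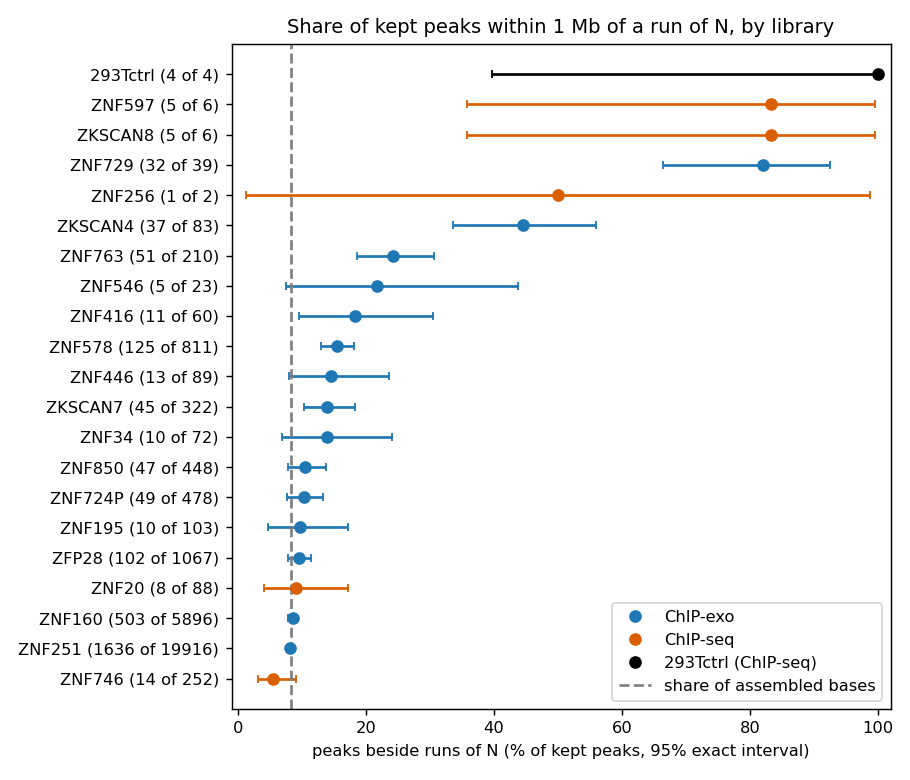
Share of the kept peaks on chromosomes 1 to 22 that were gap-flanking, in percent on the x axis, with exact 95% intervals and the numbers behind each share, for each library with kept peaks. The dashed line is the 8.35% of assembled bases inside the windows. ZNF729, ZKSCAN4 and ZNF763 lie above it with their whole interval, and ZNF251 and ZNF160 on it.

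The share differed between assays, with a mean of 20.4% ± 19.4 (SD, n = 15) in ChIP-exo and 46.3% ± 38.1 (SD, n = 5) in ChIP-seq libraries (exact permutation test over libraries, two-sided, p = 0.045). This difference depended on which libraries were included. With the libraries called against the total input of 293Tctrl left out the mean of ChIP-exo minus that of ChIP-seq was -1.17 percentage points (exact permutation test, p = 0.96), and with libraries of fewer than 20 peaks left out it turned, with ChIP-exo higher by 13.1 points (exact permutation test, p = 0.16). Assay, read filter, input and protein differ together and cannot be told apart here. ChIP-seq reads were filtered for a mapping quality above 10 by the authors, while for ChIP-exo all duplicates were kept and no such filter is stated.

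Gap-flanking peaks were densest next to the run of N. For the 18 libraries with fewer peaks than ZNF251 and ZNF160, summed, kept peaks numbered 18.4 per assembled Mb in the first 10 kb from a run, 7.97 between 10 and 50 kb, 2.91 between 50 and 100 kb and 1.44 beyond 1000 kb. ZNF160 went from 11.6 per Mb in the first 10 kb to 2.2 beyond 1000 kb, and ZNF251 from 13.7 to 7.39. From 10 kb onwards ZNF251 stayed between 6.75 and 7.39 per Mb, whereas ZNF160 was still at 5.62 between 10 and 50 kb. Of the 166 peaks with a midpoint in the first 10 kb, 109 (65.7%) were in a tandem repeat. These numbers rest on 52, 44 and 70 peaks in the first 10 kb for ZNF251, ZNF160 and the other libraries.

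**Figure D4:**
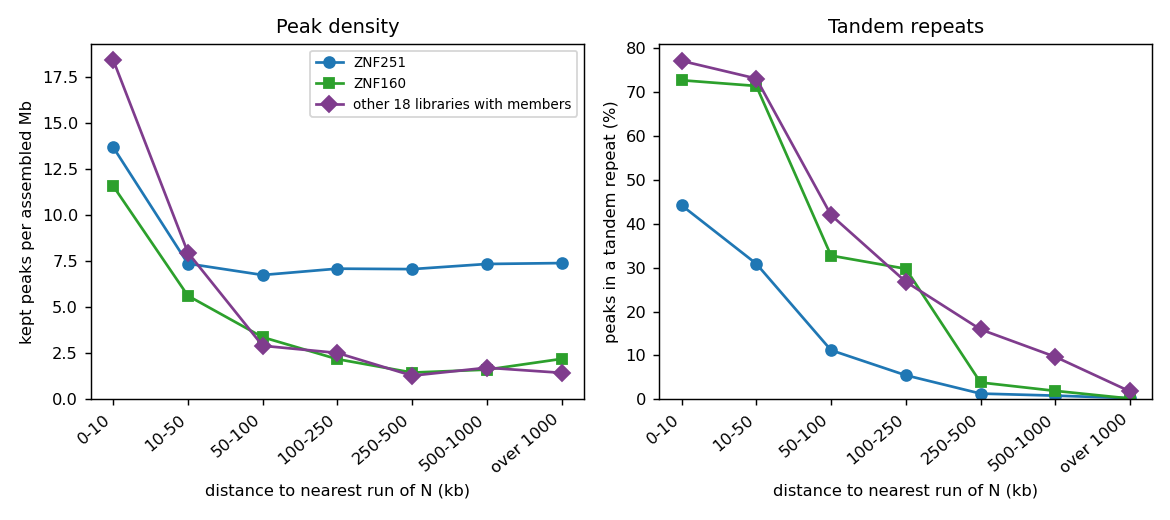
Kept peaks per assembled Mb (left) and percent of peaks in a tandem repeat (right) by distance of the peak midpoint to the nearest run of N in kb, in bins of unequal width, for ZNF251, ZNF160 and the sum of the other 18 libraries. Both measures are highest in the first 10 kb, and ZNF251 is flat from 10 kb onwards in density.

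Gap-flanking and interior peaks of the same library were then compared over the 14 libraries with at least 10 of each. An exact sign-flip permutation test over libraries was used (two-sided, adjusted over 7 measures by the Benjamini-Hochberg method, smallest possible p of 0.00012 where no difference is 0). It takes the libraries as independent. All except ZNF746 were ChIP-exo lists called against the same sampled input, and their repeat peaks partly coincide, so the p-values can be too small. The repeat content of the windows themselves was not measured, so the tests do not set peaks apart from the sequence around them. Gap-flanking peaks were wider in 14 of 14 libraries, by 0.42 ± 0.39 in log2 of the median width (SD, n = 14), or 1.34-fold (exact permutation test, adjusted p = 0.00085), and by 0.17 in log2 over all deposited peaks. The difference was largest in ZKSCAN4, with a log2 median width of 10.14 against 8.85, and smallest in ZNF251, with 8.85 against 8.82. The share in tandem repeats was higher in 13 of 14 libraries, with a mean of 29.8% against 2.87% (exact permutation test, adjusted p = 0.00085). It reached 78.4% in ZKSCAN4, 46.2% in ZNF446, 44.8% in ZNF578 and 42.2% in ZKSCAN7, and ZNF195 was the exception with none of its 10 gap-flanking peaks. The CENP-B box core was more frequent in 8 libraries and at 0 in both sets in the other 6 (mean of 8.19% against 0.0741%, exact permutation test, adjusted p = 0.014). With 6 differences at 0, its unadjusted p of 0.0078 was the smallest that this permutation test could give. Without the loci of 5 or more libraries this difference fell from 8.11 to 3.17 percentage points. Among the 14, the highest shares with the core were 28.9% in ZKSCAN7, 22.4% in ZNF578, 21.3% in ZNF850 and 18.4% in ZNF724P. ZNF729, the only other library with at least 10 gap-flanking peaks, was left out for its 7 interior peaks. Of its 32 gap-flanking peaks, 40.6% held the core and 90.6% were in a tandem repeat.

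ATTCC or GGAAT was denser in 11 of 14 libraries, by a mean of 6.31 per kb (exact permutation test, adjusted p = 0.0054). That mean is set by few of them, with 45.4 against 5.77 per kb in ZKSCAN4, 18.9 against 2.11 in ZNF160, 16.3 against 2.48 in ZNF446 and 14.0 against 2.07 in ZNF416, and the median difference was 0.82 per kb. Without ZKSCAN4 the mean difference was 3.74 per kb. Peaks within 2500 bp of a transcript start made up 563 of the gap-flanking peaks (20.8%), against 20.7% of all kept peaks. Per library the share was lower by a mean of 5.15 percentage points, and lower in 9 of 14, which did not pass the threshold (exact permutation test, adjusted p = 0.054). It did pass with ZNF160 or ZNF251 left out (adjusted p = 0.045 each, permutation test), with ZNF34 left out (0.026) or with ZNF850 left out (0.022), and was -1.86 points over all deposited peaks (permutation test, adjusted p = 0.34). GC content was lower by 1.51 percentage points on average (higher in 6 libraries, exact permutation test, adjusted p = 0.36). The score percentile within the library was higher by 2.71 points (higher in 9, exact permutation test, adjusted p = 0.40). Neither difference passed the threshold.

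**Figure D5:**
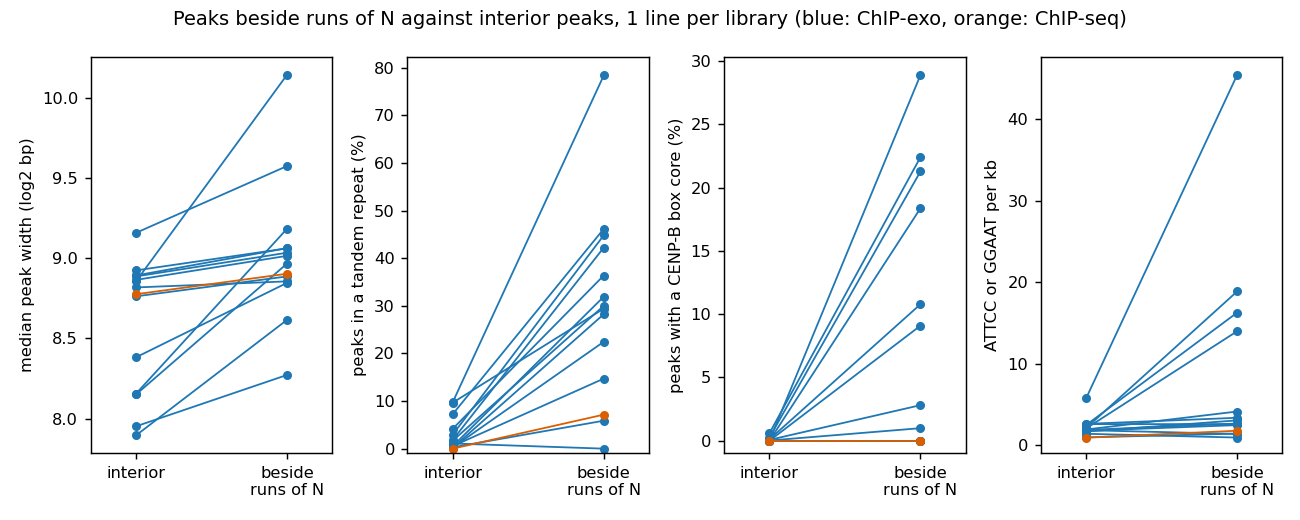
Median width, share in a tandem repeat, share with a CENP-B box core and density of ATTCC or GGAAT in interior and gap-flanking peaks (x axis), with 1 line for each of the 14 libraries with at least 10 peaks of both kinds. Width rises in 14 lines and the tandem share in 13, while the CENP-B box core rises in 8 and stays at 0 in 6.

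Reads from repeated sequence can be placed at more than 1 position, so the words of 85 bp in each peak, the shorter of the 2 read lengths, were counted in the primary assembly on both strands. Of the words in gap-flanking peaks 81.0% occurred once, against 97.9% in interior peaks. More than 50% of the words were repeated in 452 gap-flanking peaks (16.7%) and in 288 interior peaks (1.08%). By class, 70.7% of the words occurred once in the satellite-unit class, 79.4% in the ATTCC-rich class and 84.0% in peaks with no tandem repeat. The share was lower in gap-flanking than in interior peaks in 12 of the 14 libraries, ZNF763 (64.7% against 52.7%) and ZNF746 (100.0% in both after rounding) being the exceptions. At the shared loci it varied widely. No word of the peaks at loci 2 and 7 was found once, 13.2% were at locus 1 and 5.82% at locus 8, whereas all words at loci 9 and 10 and 86.6% at locus 4 were. Only exact matches were counted, and sequence that hg19 holds as runs of N could not be. A word found once can therefore have further copies in the cells, and the shares do not show that reads were placed uniquely. The part of multiply placed reads in the scores was not tested, because the lists hold no reads.

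The highest gap-flanking peak lay in the satellite-unit or the ATTCC-rich class in part of the libraries. For ZNF160 it lay at chr4:49633245-49637711 (score 2153), with 109 copies of ATTCC or GGAAT per kb and a period of 5 bp, 22.4 kb from a run of N of 3.0 Mb. For ZKSCAN4 it lay at chr10:39121256-39121832 (462, 64.1 copies per kb), for ZNF546 at chr10:42385900-42388775 (545, 48.3 copies per kb) and for ZNF416 at chr10:42395496-42397448 (442, 44.5 copies per kb), all 3 beside the same run of 3.2 Mb. ZNF251 had its highest at chr12:34850708-34851104 (3100.0, a value shared by 13 gap-flanking peaks), with a period of 0.171 kb and 5.59 kb from a run of 3.0 Mb. ZFP28 had it at locus 4.

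Other libraries had their highest gap-flanking peak outside both classes. ZKSCAN7 had it at chr7:57256264-57256658 (1824), over an exon of MTCO1P10, a pseudogene related to the mitochondrial cytochrome oxidase subunit 1. ZNF763 had it at chr21:9825435-9827737 (1124), at the edge of a run of 0.05 Mb, over the exons of the microRNA genes MIR3648 and MIR3687, where the GC content was 73.5% and ZNF546 (464), ZKSCAN7 (372) and ZNF251 (286) also had peaks. ZNF195 and ZNF34 had it at the same place, chr9:44070661-44070984 and chr9:44070659-44070915 (456 and 241), in an intron of the pseudogene ANKRD20A7P. ZNF446 had it at chr16:46591057-46591341 (401.2), in an intron of the pseudogene ANKRD26P1. ZNF746 and ZNF20 had it on chromosome 8, at chr8:43092625-43097330 (244) and chr8:43092684-43097370 (279), over a repeat with a period of 42 bp and a GC content of 22%, where 293Tctrl also had a deposited peak. The single peak of ZNF256, at chr10:42640397-42640934, scored 84.4.

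Chromosome 1 had most gap-flanking peaks, with 338, followed by chromosome 9 with 287, chromosome 2 with 252 and chromosome 10 with 240. Per Mb of window, 21 of the 22 chromosomes had between 7.69 and 15.0 and chromosome 14, with 1.06 Mb of window, had 31.1. The tandem share was 45.5% on chromosome 14 and 37.2% on chromosome 16, against 5.03% on chromosome 1 and none of the 117 peaks on chromosome 15. Near the score threshold, the 302 peaks with scores above 80 and up to 90 had a tandem share of 23.2% and a median width of 393 bp, and the 508 peaks in the same windows with scores above 70 and up to 80, which were not kept, had 21.5% and 385 bp.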

How the data were processed

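Peak lists of 15 ChIP-exo and 6 ChIP-seq libraries of KZFPs and of the 293Tctrl ChIP-seq library were used. Per the labels, the authors mapped reads to hg19 with Bowtie2 (2.2.1 in their processing notes), called peaks with MACS (1.4) in each library by itself against an input, and deposited the position and score of each peak. This deposited score, derived by MACS from a p-value, depends on the depth of library and input, so scores were not compared between libraries by a test. No replicates were pooled and the lists hold no read numbers. Depth is known only as a minimum of around 15000000 (ChIP-exo) and 27000000 (ChIP-seq) reads. Total inputs were not analysed here.

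Peaks scoring above 80 were kept and placed against runs of N of the GRCh37 primary assembly (pysam 0.24.0). Tandem repeats, motifs, GC content and words of 85 bp were computed from that sequence and distances to 254413 transcript starts from GENCODE release 44. Starts are printed counted from 1. Comparisons used exact permutation tests over libraries (scipy 1.17.1). Regions were named by rule: the 10 loci with peaks of most libraries, the highest gap-flanking peak of each library and every kept 293Tctrl peak in the windows. The peaks and measures were chosen with earlier results of these data known, and the sequence classes, the words of 85 bp and the 3 ATTCC-rich windows after seeing these. On simulated data, the tandem search called 50 of 50 windows with a period of 0.171 kb at 20% divergence and 0 of 200 random windows. These windows had equal base frequencies and substitutions only, so false calls in sequence of extreme GC content were not measured. The sign-flip test called 19 of 400 simulated sets with no difference at a threshold of 0.05. Those sets were independent normal values, unlike libraries that share an input, so they do not give the error rate for these data. Alternatives were other score thresholds, distances, run lengths, libraries, limits for a tandem repeat and windows at transcript starts.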

Additional observations from a re-analysis of the deposited data

Results flagged for a closer look

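Chromosome X, which is outside the rule, held 286 kept peaks of 13 KZFP libraries within 1 Mb of a run of N of at least 50 kb and more than 1 Mb from both ends, of 1644 kept peaks on that chromosome. ZNF251 had 175 of them and ZNF160 had 64. These peaks are listed here because the comparisons do not use that chromosome. The 293Tctrl library had no kept peak on chromosome X and 4 kept peaks in all, so it gives no level to set them against.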

How the results depend on the processing

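The number of gap-flanking peaks, their share of kept peaks in percent, and the number of loci moved with the definition. With all deposited peaks they were 6088, 10.1 and 5467, with scores above 150 they were 1504, 8.57 and 1426, with a distance of 500 kb 1683, 5.62 and 1496, with 2 Mb 4561, 15.2 and 4328, with runs of 3 Mb or more only 648, 2.16 and 521, and without ZNF251 1073, 10.7 and 921. Runs of 10 kb or more gave a share of 9.53%. Loci with 5 or more libraries numbered 45 with all deposited peaks and 6 with scores above 150, and between 8 and 12 under the other settings tried. The 293Tctrl peaks in the windows were 34 with all deposited peaks, 2 with scores above 100 and 0 with scores above 150. The share of ChIP-exo minus that of ChIP-seq was -29.2 points with a distance of 500 kb, which passed the threshold (exact permutation test, p = 0.033). It was -1.20 points with all deposited peaks, -31.6 with scores above 100, -21.9 with 2 Mb, -1.17 without the libraries called against the 293Tctrl input (chosen after seeing the data) and 13.1 with at least 20 peaks. None of these passed the threshold in an exact permutation test.

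Width, tandem repeats, ATTCC density and the CENP-B box core kept their direction and their side of the threshold under all alternatives run, and with each library left out in turn, a setting chosen after seeing the data. Their sizes moved. The width difference ranged from 0.17 (all deposited peaks) to 0.65 (runs of 3 Mb or more) in log2, the tandem difference from 19.3 (match of at least 0.6) to 61.1 points (runs of 3 Mb or more), the CENP-B difference from 3.17 (without loci of 5 or more libraries) to 29.3 points (runs of 3 Mb or more), and the ATTCC difference from 3.74 (without ZKSCAN4) to 13.2 per kb (runs of 3 Mb or more). The difference at transcript starts passed the threshold with at least 5 peaks of each kind (-5.12), with runs of 3 Mb or more (-10.7) and without ZNF251 (-5.70), and ranged from -6.18 to -4.11 over the libraries left out. It did not pass and was smaller with all deposited peaks (-1.86), a window of 1000 bp (-2.21), at least 20 peaks of each kind (-3.32), no loci of 5 or more libraries (-3.89) and ChIP-exo only (-4.49). The difference in score percentile was -1.91 with runs of 3 Mb or more. The causes were not tested. Precision is limited by the 1 library per KZFP and by lists that hold no reads.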
